A study of Homo sapiens with 6 samples.

Results

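The BCL2 family decides whether the outer membrane of the mitochondria stays closed. Its anti-apoptotic proteins, among them BCL2, BCL-xL and MCL1, hold the effectors BAX and BAK in check, and the BH3-only proteins either block these guards or activate the effectors directly. When BAX or BAK form pores, cytochrome c leaves the mitochondria and caspases are activated.

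The 10 genes described here were taken from a list of family members by name and matched to the Ensembl identifiers of the count data. They are 10 of the 67140 genes listed. BCL2, BCL2L1 and MCL1 are anti-apoptotic, BAX and BAK1 are effectors, and BBC3, PMAIP1, BID, BCL2L11 and BIK are BH3-only genes. The series holds RNA-Seq libraries of U2OS, an established human bone tumour line of wild-type genotype, with 2 libraries in each of 3 groups. One group was untreated, one received adriamycin at 1.5 μg/ml and one etoposide at 100 μM, both for 4 h. Both drugs are poisons of topoisomerase II. For the untreated and adriamycin libraries 220 to 292 genes were analysed here and 0 of the 10 members are among them, so all values below describe etoposide-treated cells. Whether etoposide or adriamycin moved a member was not tested, and no level below is a response to a drug. All 10 members passed a minimum of 10 counts in each of the 2 libraries. In bulk RNA, fewer expressing cells and less RNA per cell cannot be told apart.

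The etoposide libraries held 21450766 and 14244235 counts, of which the 10 members took 16339 and 10455. Mitochondrial genes took 5.48% and 5.57% of the counts. Of the 10 mesenchymal and osteoblastic markers examined, 6 had at least 10 counts in both libraries, and the whole list summed to 2008 and 2089 TPM, led by COL1A1 and VIM. TPM here means counts per kilobase of merged exons, scaled to a total of 1000000 in each library. The labels name the tissue bone and the cell type epithelial. Under 10 counts in both libraries were COL1A2 and the bone genes SP7, IBSP and BGLAP. Of the 5 epithelial markers, 4 had at least 10 counts in both libraries. KRT8 and KRT18 gave most of a summed 748 and 696 TPM, EPCAM had 293 and 169 counts, CDH1 (E-cadherin) had 30 and 20 counts and KRT19 had 1 and 0. The 3 blood markers were each under 10 counts in both libraries, as was the endothelial gene CDH5 (PECAM1 had 22 and 14). The labels do not say that the 2 libraries came from separate cultures, so the spread between them may be technical.

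The stretches below lie before the start sites of the member with the highest level in these cells (PMAIP1), of an effector (BAX) and of a BH3-only and an anti-apoptotic member close to each other in counts (BBC3 and BCL2L1). They were read from RefSeq windows on GRCh38.p14, which run from 250 bases before to 50 bases after a start, and only bases outside annotated exons are shown, 5′ to 3′ on the strand of the gene. Capitals mark 4 short motifs on either strand: the GC box GGGCGG, the CCAAT box CCAAT, the E-box CACGTG and the TATA box TATAAA. The PMAIP1 stretch is chr18:59899746-59899995 on the plus strand and ends at the start site. The BAX stretch is chr19:48954625-48954814 on the plus strand and ends 60 bases before the RefSeq start. The BBC3 stretch is chr19:47232767-47232917 on the minus strand and ends 99 bases before the RefSeq start. The BCL2L1 stretch is chr20:31723990-31724213 on the minus strand and ends 26 bases before it.
PMAIP1: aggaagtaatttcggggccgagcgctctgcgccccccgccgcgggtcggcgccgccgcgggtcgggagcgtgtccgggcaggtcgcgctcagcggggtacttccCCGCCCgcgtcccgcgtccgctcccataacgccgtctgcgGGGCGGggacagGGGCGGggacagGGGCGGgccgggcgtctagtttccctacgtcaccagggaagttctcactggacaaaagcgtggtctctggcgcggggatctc
BAX: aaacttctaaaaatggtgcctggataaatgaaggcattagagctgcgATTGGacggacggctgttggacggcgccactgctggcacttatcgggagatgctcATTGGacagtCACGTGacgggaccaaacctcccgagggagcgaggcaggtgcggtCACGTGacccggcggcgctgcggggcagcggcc
BBC3: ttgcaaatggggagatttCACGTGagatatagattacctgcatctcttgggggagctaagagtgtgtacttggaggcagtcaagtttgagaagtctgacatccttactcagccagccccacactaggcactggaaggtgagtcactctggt
BCL2L1: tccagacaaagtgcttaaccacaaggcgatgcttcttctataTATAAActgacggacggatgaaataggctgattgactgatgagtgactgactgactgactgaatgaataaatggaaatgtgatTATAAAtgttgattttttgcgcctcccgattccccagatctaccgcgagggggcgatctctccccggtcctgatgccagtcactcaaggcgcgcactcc

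These stretches differ in their motifs, although the BAX and BBC3 stretches both hold an E-box. The PMAIP1 stretch holds 4 GC boxes, the BAX stretch holds 2 CCAAT boxes and 2 E-boxes, the BBC3 stretch holds 1 E-box, and the BCL2L1 stretch holds 2 TATA boxes. Of the members, 8 have a RefSeq window, 13 windows in all because BID and BCL2L1 have several starts. The other BCL2L1 window, chr20:31722819-31723118, holds 0 TATA boxes and 1 GC box, at 61.3% GC. MCL1 and BIK have no entry. Over the full 300 bases the BAX window holds 4 E-boxes, a motif present in 7.26% of the 35116 windows of all genes. The full BAX window also holds 2 GC boxes and 2 CCAAT boxes, and the full BBC3 window holds 1 CCAAT box beside its E-box. A GC box is present in 45% of all windows, a CCAAT box in 34.6% and a TATA box in 11.5%. GC content was 71.3% in the PMAIP1 window and 48% in the BBC3 window, against a median of 58.7% over all windows. These matches are letters in a window and not shown binding sites.

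PMAIP1, BAX and MCL1 were the 3 members with the highest per-length level in etoposide-treated cells, and BCL2 was the lowest. PMAIP1 was at 224 ± 1.40 TPM (SD, n = 2), BAX at 141 ± 6.02 TPM, MCL1 at 130.3 ± 1.10 TPM and BCL2 at 1.84 ± 0.200 TPM. The median of the 10 members was 56.2 TPM, beside a median of 16.5 TPM over 13715 protein-coding genes with at least 10 counts in both libraries, and 8 of the 10 members lay above that median. All 10 members held the same rank in both libraries.

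**Figure D1:**
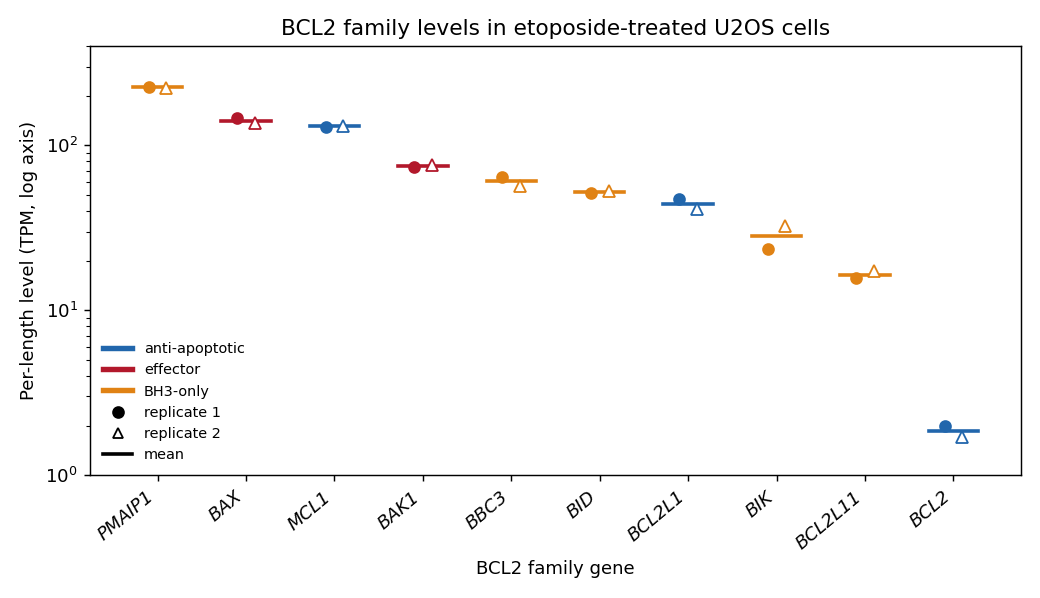
Per-length level of each of the 10 members (TPM, log axis) in the 2 etoposide libraries, with a circle for replicate 1, an open triangle for replicate 2 and a bar for the mean, coloured by class. The members run from PMAIP1 at 224 TPM to BCL2 at 1.84 TPM, and the libraries are furthest apart for BIK.

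Among the anti-apoptotic genes, MCL1 gave most of the message. MCL1 (ENSG00000143384; GRCh38, chromosome 1, 150560895 to 150579738, minus strand) encodes a short-lived protein that binds NOXA, BIM and BAK. It had 5023 counts in replicate 1 and 3307 in replicate 2, or 129.5 and 131 TPM, which puts it above 92.1% of the coding genes. The libraries were almost level for this gene, at 1.01-fold. ADAMTSL4-AS1, on the same strand, shares 5.27% of its exon bases and had 34 and 43 counts. An exact 95% Poisson interval, which covers counting error only, ran from 4885 to 5164 counts in replicate 1.

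BCL2L1 (ENSG00000171552, chromosome 20, 31664452 to 31723989, minus strand) encodes BCL-xL and, by another splice site, the pro-apoptotic BCL-xS, which counts per gene cannot tell apart. It had 1236 and 696 counts, or 47.2 and 40.9 TPM. MCL1 stood above it by 2.74-fold in replicate 1 (95% interval 2.58 to 2.92, exact binomial) and by 3.21-fold in replicate 2 (2.95 to 3.48). Exons of ABALON, a long noncoding RNA gene on the opposite strand, cover 41.3% of the exon bases of BCL2L1. ABALON itself had 78 and 42 counts. Without the shared bases in its length, and with all counts unchanged, BCL2L1 was at 75.1 TPM instead of 44.1. MCL1, treated alike, was at 137.5 TPM, 1.83-fold above it. Strand use in the counting is not stated, so reads of this overlap cannot be assigned to either gene with certainty.

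BCL2 (ENSG00000171791), the founding member of the family, spans 196783 bases of chromosome 18, from 63123346 to 63320128 on the minus strand. It had 156 counts in replicate 1 and 87 in replicate 2, or 1.98 and 1.70 TPM. Both libraries were low, and 11.8% of the coding genes lay below BCL2. At this depth the exact 95% Poisson interval ran from 132 to 182 counts in replicate 1 and from 69.7 to 107 in replicate 2. MCL1 was 65.3-fold higher than BCL2 in replicate 1 (95% interval 55.6 to 77.0, exact binomial) and 77.0-fold higher in replicate 2 (62.3 to 96.5). BCL2L1 was 23.8-fold and 24.0-fold higher than BCL2. With merged coding bases as the length, the mean ratios to BCL2 were 33.1-fold for MCL1 and 8.36-fold for BCL2L1.

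Both effector genes were well expressed, BAX more than BAK1. BAX (ENSG00000087088), whose protein moves from the cytosol to the mitochondria when activated, occupies 48954815 to 48961798 on chromosome 19, plus strand. It had 2346 and 1437 counts, or 145.5 and 137 TPM. BAK1 (ENSG00000030110), whose protein sits in the outer mitochondrial membrane already, occupies 33572547 to 33580293 on chromosome 6, minus strand, and had 1016 and 683 counts, or 73.7 and 76.1 TPM. GGNBP1, on the opposite strand, shares 4.11% of the BAK1 exon bases and had 5 and 2 counts. The ranges of the 2 genes did not overlap, and BAX was 1.97-fold higher in replicate 1 (95% interval 1.83 to 2.13, exact binomial) and 1.80-fold higher in replicate 2 (1.64 to 1.97). The size of this gap rests on gene length: the mean ratio was 6.02-fold with the Ensembl canonical transcript and 7.94-fold with the median transcript length. On merged exons BAX stood above MCL1 by 1.12-fold in replicate 1 (1.07 to 1.18) and 1.05-fold in replicate 2 (0.982 to 1.11), the latter within counting error. The mean ratio was 2.24 with the canonical transcript, 2.75 with the median transcript length and 0.56 with coding bases, where MCL1 was the higher gene.

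The BH3-only genes ran from 16.4 to 224 TPM, and PMAIP1 led them. PMAIP1 (ENSG00000141682) encodes NOXA, a small protein that binds MCL1, and occupies 59899996 to 59904305 on chromosome 18, directly after the GC-box-rich stretch shown above. It had 3069 and 1979 counts, or 225.2 and 223 TPM. The libraries were 1.03-fold apart, and the mean lay above 96.0% of the coding genes. PMAIP1 exceeded MCL1 by 1.74-fold in replicate 1 (95% interval 1.66 to 1.82, exact binomial) and by 1.70-fold in replicate 2 (1.61 to 1.80).

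BBC3 (ENSG00000105327) encodes PUMA, which binds all anti-apoptotic family members, and occupies 47220822 to 47232766 on chromosome 19, minus strand. It had 1282 and 729 counts, or 64.6 and 56.4 TPM, lower in replicate 2. PMAIP1 was 3.49-fold above BBC3 in replicate 1 and 3.96-fold above it in replicate 2. The miRNA genes MIR3190 and MIR3191 lie within exons of BBC3 and were listed at 0 in both libraries, and how reads of these bases were assigned is not stated.

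BID (ENSG00000015475), the link from death receptors, whose protein is cut by caspase-8 to its active form, occupies 17734138 to 17774770 on chromosome 22, minus strand, and had 1416 and 941 counts, or 51.4 and 52.5 TPM. It was the steadiest member between the libraries, with CPM values, that is counts per 1000000 of all counts, of 66.0 and 66.1. BBC3 stood above BID by 1.26-fold in replicate 1 (95% interval 1.16 to 1.36, exact binomial) and by 1.08-fold in replicate 2 (0.975 to 1.19), a gap within counting error in replicate 2. With coding bases, the canonical transcript and the median transcript length BID was the higher gene, at mean ratios of BBC3 to BID of 0.876, 0.989 and 0.713.

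BCL2L11 (ENSG00000153094) encodes BIM, an activator of BAX and BAK with several splice forms, and occupies 111119378 to 111168444 on chromosome 2, plus strand. It had 655 and 471 counts, or 15.6 and 17.2 TPM, close to the median coding gene. Exons of the long noncoding RNA gene MIR4435-2HG on the opposite strand cover 10.8% of its exon bases, and that gene had 707 and 546 counts. BBC3 was above BCL2L11 by 4.14-fold and 3.28-fold, and BID by 3.30-fold and 3.05-fold. With the median transcript length BCL2L11 stood above BBC3, at 41.2 against 35.2 TPM, and BID above BCL2L11 by 1.20-fold.

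BIK (ENSG00000100290), a BH3-only gene whose protein acts largely at the endoplasmic reticulum, occupies 43110750 to 43129712 on chromosome 22, plus strand. It had 140 and 125 counts, or 23.6 and 32.4 TPM. Replicate 2 was 1.34-fold above replicate 1, the widest gap of the 10 members. The exact 95% Poisson intervals ran from 118 to 165 counts in replicate 1 and from 104 to 149 in replicate 2. BIK had fewer counts than BCL2 in replicate 1 but a per-length level above it, because its exons cover 951 bases and those of BCL2 12612.

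Summed by class, the BH3-only genes were at 381 ± 1.01 TPM (SD, n = 2), the effectors at 216 ± 4.28 TPM and the anti-apoptotic genes at 176 ± 3.59 TPM. The sums of the 3 classes did not overlap between the libraries. Within the anti-apoptotic class, MCL1 made up 72.5% and 75.5% of the sum and BCL2 1.11% and 0.980%. PMAIP1 made up 59.2% and 58.5% of the BH3-only sum. The classes hold 3, 2 and 5 of the 10 members, so the sums describe these genes and not the whole family, and with the length of the Ensembl canonical transcript the effectors, at 323 TPM, stood above the BH3-only genes, at 312 TPM. With merged coding bases the anti-apoptotic genes, at 336.6 TPM, stood above the effectors, at 234 TPM. Message levels do not give protein levels.

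**Figure D2:**
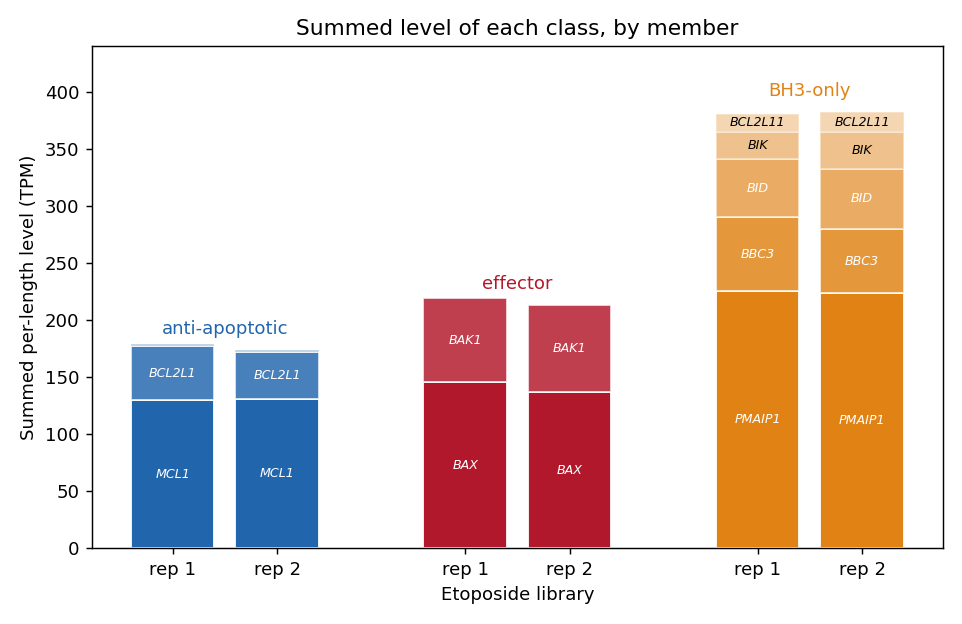
Summed per-length level (TPM) of the anti-apoptotic, effector and BH3-only members in each etoposide library, with each bar divided by member. MCL1, BAX and PMAIP1 are the lower and largest part of their bars, and BCL2 is the unlabelled sliver on the anti-apoptotic bars.

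In the order of levels the members ran PMAIP1, BAX, MCL1, BAK1, BBC3, BID, BCL2L1, BIK, BCL2L11, BCL2. For all 9 pairs of neighbours the ranges over the 2 libraries did not overlap. Counting error set a tighter limit: in 7 of the 9 pairs the exact binomial interval of the ratio stayed above 1 in both libraries, and the exceptions were BAX with MCL1 and BBC3 with BID. The order rests on the length given to each gene. It was recomputed with 5 measures of length, the merged exons included. PMAIP1 was highest with 3 of them and BAX with 2, both of which used transcript lengths. The measure without bases shared with another gene was chosen after seeing the data. It leaves the lengths of PMAIP1, BAX and BID unchanged and takes 2.51% off that of BBC3. It therefore cannot decide between PMAIP1 and BAX and hardly bears on BBC3 and BID. The canonical BAX transcript covers 795 bases and its merged exons 2587. PMAIP1, BAX and MCL1 held the 3 highest ranks and BCL2 the lowest with all 5 measures. BBC3 was above BAK1 with 2 of them and above BID with 2, so the middle of the order is not settled by these data. With the median transcript length BCL2L11 was at 41.2 TPM instead of 16.4 and took rank 5. PMAIP1 stood above MCL1 with all 5 measures, at mean ratios of 1.26 to 1.78, while the place of BAX beside these 2 genes depends on the length used.

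**Figure D3:**
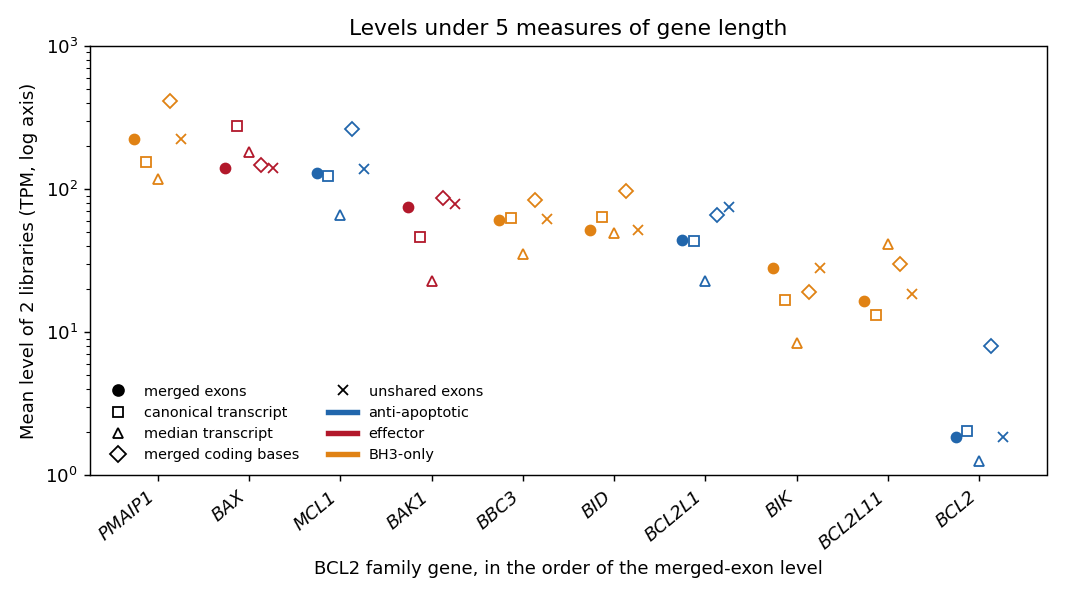
Mean level of the 2 etoposide libraries (TPM, log axis) for each member with gene length taken as merged exons, canonical transcript, median transcript, merged coding bases, or exons without bases shared with another gene. PMAIP1, BAX and MCL1 stay highest, in an order that varies, and BCL2 stays lowest under each measure. BAK1, BBC3, BID, BCL2L1, BIK and BCL2L11 change places.

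The other genes of the pathway were listed by name. Of 11 further BCL2 family genes, 10 had at least 10 counts in both libraries, with a median of 11.7 TPM over the list. BOK, an effector-like member, was highest at 120 ± 1.65 TPM (SD, n = 2), followed by BCL2L12 at 103 ± 6.37 TPM, the BH3-only gene BAD at 35.96 ± 3.08 TPM, BCL2L13 at 25.3 ± 0.423 TPM and the anti-apoptotic BCL2L2 (BCL-w) at 23.6 ± 1.29 TPM. BCL2L10 had 0 counts in both libraries, where a one-sided 95% limit is 3 counts in each. On the same merged-exon scale BOK lay between MCL1 and BAK1, and the range of BCL2L2 overlapped that of BIK. Exon overlap with other genes was examined for the 10 members only, so levels of these further genes, BCL2L2 included, may miss shared reads.

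All 18 genes of the mitochondrial death pathway around the family had at least 10 counts in both libraries, with a median of 36.4 TPM. VDAC2, an outer-membrane channel that binds BAK, was highest at 440 ± 17.1 TPM (SD, n = 2). BIRC5 (survivin) was at 213 ± 10.5 TPM, CYCS (cytochrome c) at 163 ± 7.67 TPM, MTCH2, a mitochondrial receptor for cleaved BID, at 144 ± 4.50 TPM, and BIRC2 at 83.9 ± 1.02 TPM. The lowest were DFFB and DIABLO at 2.86 and 2.89 TPM, and whether exons of these pathway genes overlap other genes was not examined. All 10 genes of the list of known regulators of members also had at least 10 counts in both libraries, with a median of 13.4 TPM, led by ATF4 at 544 ± 46.8 TPM and E2F1 at 301 ± 8.997 TPM, then HUWE1, a ubiquitin ligase of MCL1, at 66.3 ± 14.2 TPM, MDM2 at 55.4 ± 1.50 TPM and USP9X, a deubiquitinase of MCL1, at 14.7 ± 2.86 TPM. No test was made between these lists.

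**Figure D4:**
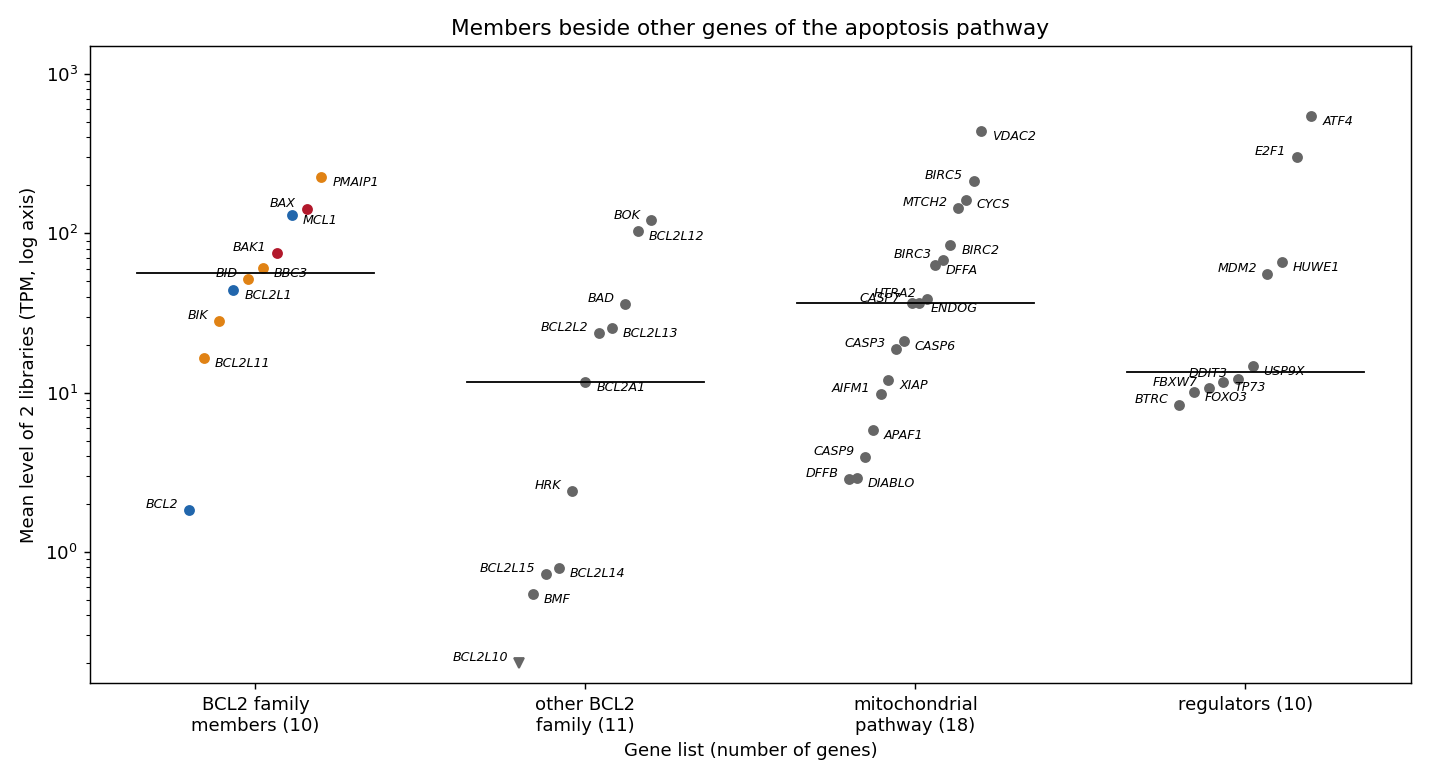
Mean level of the 2 etoposide libraries (TPM, log axis) for the 10 members, 11 other BCL2 family genes, 18 genes of the mitochondrial pathway and 10 regulators, with a line at the median of each list. The medians are 56.2, 11.7, 36.4 and 13.4 TPM, and the triangle at the foot of the axis is BCL2L10, which had 0 counts.

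The comparison left was how far the 2 etoposide libraries differed for these genes, since that spread limits every value above. Each gene with at least 10 counts in both libraries was tested by an exact two-sided binomial test against the library totals, with Benjamini-Hochberg adjustment over all 17207 genes. This compares 2 libraries, not 2 conditions, and sets their gap against counting error only, without the spread between replicates. At an adjusted p under 0.01 and a gap of more than 2-fold, 0 of the 10 members were called, beside 0.668% of all genes tested. At an unadjusted p under 0.05 it was 4 members, beside 29.9% of all genes. At an adjusted p under 0.01 with no limit on the fold it was 2 members, BCL2L1 and BBC3, beside 12.1% of all genes.

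Replicate 2 was the lower library for both. BCL2L1 went from 57.6 to 48.9 CPM, a log2 difference of −0.24 with an adjusted p of 0.00477 by the exact binomial test. BBC3 went from 59.8 to 51.2 CPM, a log2 difference of −0.22 with an adjusted p of 0.00719 by the same exact test. BIK had the widest gap, 0.43 on the log2 scale, but with few counts its adjusted p was 0.0782 by the exact test. The median absolute gap was 0.12 for the members, beside 0.16 for all genes tested, both on the log2 scale, and the signed medians were −0.027 and 0.035. The canonical transcript of BBC3 is 69.7% GC, above 99.5% of the 17148 tested genes with a length, and the part of GC content in its gap was not tested. Over 17148 genes (genes do not count as replicates) Pearson and Spearman correlations of the gap were −0.016 and −0.021 with GC content and 0.071 and 0.19 with log2 transcript length.

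**Figure D5:**
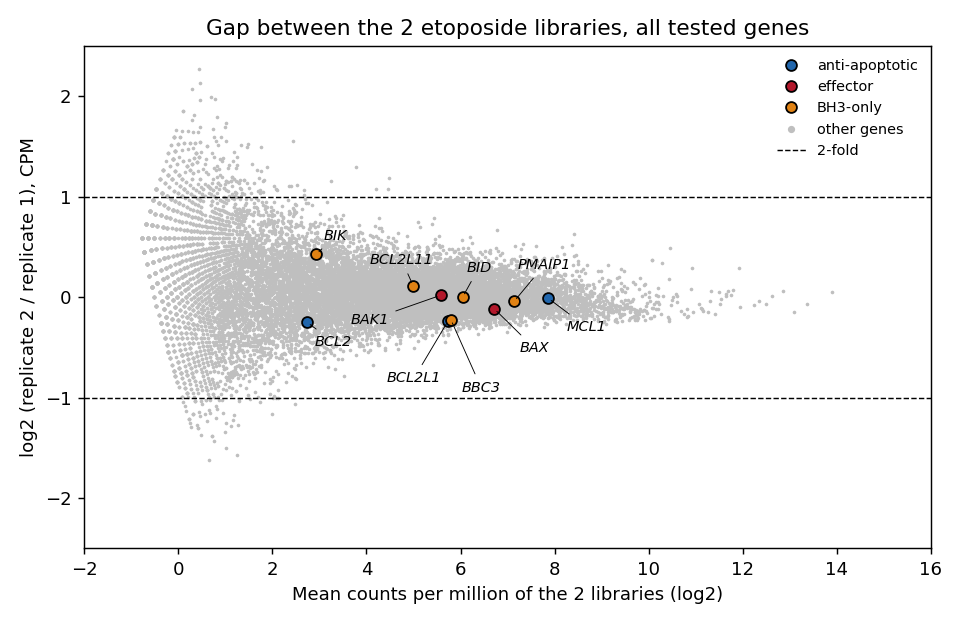
Log2 ratio of replicate 2 to replicate 1 in CPM against the mean CPM of the 2 etoposide libraries (log2) for 17207 genes in grey and the 10 members in colour, with dashed lines at 2-fold and 1 gene outside the axes. All 10 members lie inside the dashed lines, with BIK at 0.43 and BCL2 at −0.25 the farthest from 0.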

How the data were processed

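RNA-Seq of U2OS cells was analysed in 2 libraries of the etoposide group. The authors sequenced poly-A mRNA as paired-end reads, aligned them with HISAT2 2.1.0 to GRCh38, counted them per Ensembl gene with featureCounts (Subread 2.0.0) and deposited raw counts without normalization. The submitters' processing notes also name DESeq2 1.30.1. Strand and multi-mapping options are not given in the sources used here, so genes that share exons with another gene are uncertain. Columns of per-sample values that match no sample numbered 0. The control and adriamycin counts of the members were not analysed here.

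The 10 members and all gene lists were chosen with earlier results of these data known. Symbols, coordinates and lengths came from GENCODE 44, which matched 60357 of 67140 identifiers (0.0411% and 0.0445% of counts had no match). Levels between genes are counts per kilobase of merged exons scaled to 1000000 over the matched genes. Ratios of 2 genes in a library carry exact 95% binomial intervals, and intervals cover counting error only. The 10 members were named in full, and from each of the 3 lists of other family, pathway and regulator genes the 5 highest genes and every gene under 10 counts in both libraries. A gene of the regulator list is not reported here and was left out of that list. DFFB, DIABLO, marker genes and genes overlapping a member were named after their values were seen. No edgeR or DESeq2 test between groups was run, since the other groups' genes analysed here hold no member. The binomial test was run with scipy 1.17.1 in Python 3.11.15 and tested on simulated data. The simulated counts held counting error only, so they do not show how the test behaves with spread between replicates. Alternatives were other gene lengths, other scalings (edgeR 4.0.16 TMM factors and DESeq2 1.42.0 size factors, R 4.3.3), other count minimums and each library alone. Promoter windows came from the RefSeq table on GRCh38.p14.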

Additional observations from a re-analysis of the deposited data

How the results depend on the processing

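Levels in TPM depend on the gene length and the denominator, so the summed levels moved by more than 1 SD in 14 of 18 recalculations with both libraries. With merged coding bases the anti-apoptotic, effector and BH3-only sums were 336.6, 234 and 643 TPM, with the canonical transcript 169, 323 and 312 TPM, with the median transcript length 89.5, 203 and 251 TPM, and with scaling over nuclear protein-coding genes 243, 298 and 525 TPM. Another alternative, chosen after seeing the data, took bases shared with another gene out of the lengths of the members only. All counts and the lengths of other genes were unchanged. The anti-apoptotic sum was then 214.5 TPM and the BH3-only sum 385 TPM. Of the 10 members, 3 kept their rank with merged coding bases, 6 with the canonical transcript and 3 with the median transcript length. With either library left out the sums ranged from 174 to 179 TPM, from 213 to 219 TPM and from 380.4 to 382 TPM in the same order of classes, and all 10 members kept their rank. Leaving out 1 of 2 libraries always moves a mean by less than 1 SD, and the scalings multiply all genes of a library alike, so neither says how stable the order is. Median-of-ratios size factors moved no sum by more than 1 SD. The number of members apart between the libraries was 0 in the other settings, beside 0.117% to 0.604% of the genes tested in each. It was 2 with an adjusted p under 0.05 and no fold limit, beside 18.9% of all genes. Of all 17207 genes tested, 115 were called apart, and 3252 with an adjusted p under 0.05 and no fold limit. With at least 50 counts in both libraries it was 15 of 12786 genes. At an adjusted p under 0.01 with no fold limit, 2 members passed, beside 12.1% of all genes. It was 3 with TMM factors or median-of-ratios size factors (BAX in addition), and 1, BCL2L1, with at least 1 count over both libraries. The share of all genes without a fold limit was not computed for these other settings, so their counts cannot be read as a result about the members. The DESeq2 and replicate-block alternatives of the comparison between groups were not run. No paired analysis was possible because the members were analysed in a single group. The lowest counts were those of BCL2 and BIK, 87 to 156 per library. With merged coding bases BCL2 went from 1.84 up to 7.93 TPM. With the median transcript length BIK went from 28.02 down to 8.40 TPM. BIK itself is 951 bases long by both merged exons and median transcript, so this fall came from the lengths of other genes in the denominator.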
